A study of Triticum aestivum with 8 samples.

Results

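The crown of a synthetic hexaploid wheat line after 6 weeks at 4 °C was compared with the leaf of the same line after 12 weeks at 4 °C, probe by probe, on 2 one-colour arrays per tissue. These are 4 of the 8 arrays of the study, chosen by the tissue and temperature in their labels. Of the 37826 probes on each array, 32489 were compared. The scanner software marked each of these as well above background on both crown arrays, on both leaf arrays, or on all 4. All plants were first grown for 3 weeks at 24 °C. The other 4 arrays, 2 per tissue, came from plants at that stage, without cold, and serve below as a separate measurement of the same tissue difference. The labels give the leaf as the first leaf and the crown as shoot that contains the shoot apical meristem. A synthetic hexaploid is a wheat made anew by crossing the ancestors of bread wheat. The line carries no other name in the labels.

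The crown is the compressed base of the cereal shoot. It holds the meristem and the bases of the leaves, and a cereal that loses its leaves in winter can regrow only from a living crown. The leaf blade is built for photosynthesis, and in the cold it accumulates protective proteins, among them the cold-regulated (COR) proteins and dehydrins. Long cold also serves as the signal for vernalization, the acquired ability to flower, which is perceived in the shoot apex.

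The crown plants had spent 6 weeks in the cold and the leaf plants 12 weeks, so tissue cannot be told apart from time at 4 °C and plant age. Each tissue at 4 °C also lay on 1 slide and was scanned on 1 day of its own, so slide and scan day cannot be told apart from tissue either. All 4 arrays at 4 °C came from the same scanner and software version. The design text speaks of 2 independent experiments, without saying what was repeated, so p-values here measure only the spread between these arrays, and the number of arrays limits the precision of each value. Fewer cells of a type and less RNA per cell cannot be told apart in such tissue samples. No probe carries the name of a leaf or crown marker, so the tissue labels could not be checked against markers. Across all 37826 probes the crown arrays at 4 °C had r = 0.915 to 0.919 against crown at 24 °C, but 0.778 to 0.779 against leaf at 24 °C. For the leaf arrays at 4 °C these values were 0.936 to 0.939 against leaf and 0.761 to 0.769 against crown. The free-text descriptions of the crown arrays at 24 °C speak of leaves, whereas their titles, source names and tissue entries say crown.

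Levels are given as log2 of the processed signal minus the array's own 75th percentile, so that 0 is the 75th percentile and each unit is a doubling. A difference is crown minus leaf on that scale. A probe was called when limma gave a Benjamini-Hochberg adjusted p below 0.05 and the difference was at least 2-fold. The replicate arrays lay close together. The median gap between replicate arrays was 0.0674 in crown, where 79 probes (0.248%) differed by 2-fold or more, and 0.0834 in leaf, where 417 probes (1.44%) did. Across all probes, crown and leaf arrays at 4 °C correlated at r = 0.800 to 0.805.

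Crown and leaf differed over most of the array. By limma, 18964 of the 32489 probes (58.4%) were called, 11247 of them (34.6%) higher in crown and 7717 (23.8%) higher in leaf. Calls in favour of crown thus made up 59.3% of all calls, but that share depended on how the arrays were scaled. It was 47.0% after quantile normalization, 47.9% after scaling to the median, 48.7% after normexp background correction with quantile normalization, and 87.9% after scaling to the 7 spike-in controls, whose crown minus leaf differences were -1.88 to -0.92. The median difference over all tested probes moved with it, from 0.23 to between -0.17 and 1.75. No call turned to the other tissue under any of these settings. Of the probes not called, 3718 had a 95% interval that reached past 2-fold. For 9807 probes (30.2%) the whole interval lay within 2-fold, and for 4646 it lay within 1.5-fold.

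With the 75th-percentile scaling, the largest differences were more often in favour of crown. Among the probes that cleared background on each of the 4 arrays, where both sides were measured, 8238 were called higher in crown and 7178 higher in leaf. Of these, 1364 in crown and 1072 in leaf differed by 16-fold or more, 260 and 75 by 256-fold or more, and 85 and 9 by 1024-fold or more. The excess of crown calls was greatest among dim probes. When the tested probes were split by level into 5 equal bins, in the dimmest bin 52.5% were called higher in crown and 15.2% higher in leaf. In the brightest bin the shares were 27.8% and 25.8%. The bins include 2622 probes well above background on both crown arrays and on neither leaf array, against 430 the other way round. The direction of such probes follows from the filter that admitted them, so the shares in the dim bins are no separate evidence. The arrays also differed in reach, since 84.9% to 85.6% of probes lay well above background on the crown arrays and 77.3% to 79.3% on the leaf arrays. The part of this in the result among dim probes was not tested, beyond the calls on all 4 arrays given above and a common floor of -6.04 set on every array, under which 9179 probes were higher in crown and 7160 in leaf.

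**Figure D1:**
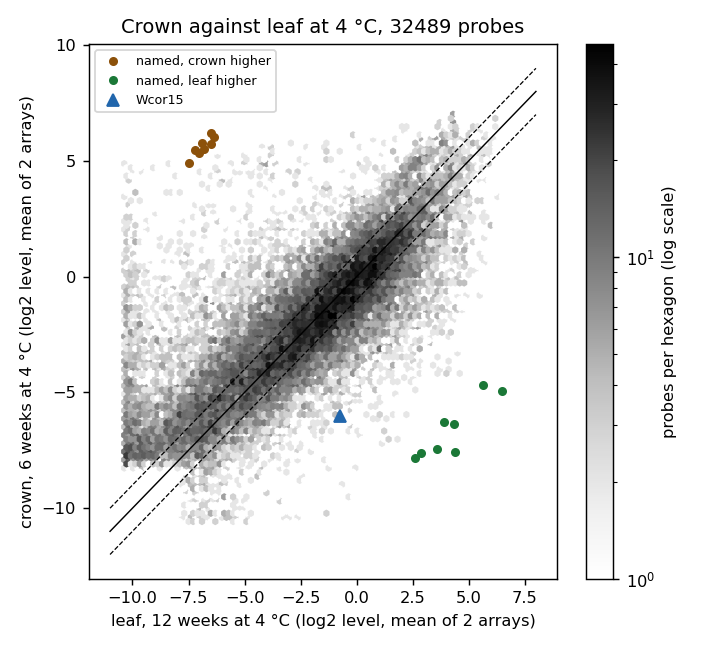
Level in crown (vertical) against leaf (horizontal) at 4 °C, both in log2 relative to the array's 75th percentile and as the mean of 2 arrays, for the 32489 tested probes; grey shows the number of probes per hexagon on a log scale, the solid line equality and the dashed lines a 2-fold difference. Brown and green points are the 8 probes highest in crown and the 8 highest in leaf among called probes with signal past background on each of the 4 arrays, and the triangle is Wcor15. The cloud is wide, and the dim left edge holds probes at background in leaf that reach high levels in crown.

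The 8 probes that favoured crown most, among those measured on all 4 arrays, differed by 4809- to 6721-fold. Of these, 7 are contigs of the wheat0130 assembly and 1 is a clone of the MUG group. The files pair none of them with a gene. These 8, and the 8 for leaf below, were picked by the size of the difference. Lack of overlap and small p-values among them are therefore no separate evidence. The first, wheat0130Contig3065, read 6.24 and 6.17 on the crown arrays and -6.41 and -6.62 on the leaf arrays. It was thus among the bright probes in crown and near background in leaf, with no overlap. The difference was 12.71 (SE 0.0812, n = 2 and 2) with an adjusted p of 2.1e-08 by limma.

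The clone MUG002E03R990520 read 5.36 and 5.33 in crown and -6.96 and -7.12 in leaf. For wheat0130Contig12265 the crown arrays gave 6.06 and 5.98 and the leaf arrays -6.31 and -6.38. Both were bright in crown and dim in leaf on every array. The differences were 12.38 (SE 0.0691) and 12.37 (SE 0.103), with adjusted p-values by limma of 2.1e-08 and 2.3e-08. The remaining 5, wheat0130Contig12062, wheat0130Contig7343, wheat0130Contig7416, wheat0130Contig3822 and wheat0130Contig16213, lay between 4.90 and 5.78 on the crown arrays and between -7.74 and -6.29 on the leaf arrays. All 8 were also called higher in crown at 24 °C.

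The 8 probes that favoured leaf most differed by 1155- to 3970-fold. The clone probe rwhkv10e02_224 read 4.38 and 4.41 on the leaf arrays and -7.65 and -7.47 on the crown arrays. It was near background in crown, and its difference of -11.95 (SE 0.0908) had an adjusted p of 2.2e-08 by limma. The contig whsh_allContig1137 was the brightest of the 8, at 6.44 and 6.54 in leaf against -4.89 and -4.98 in crown. Its difference was -11.43 (SE 0.103, adjusted p = 2.4e-08 by limma). A further probe of this contig, whsh_allContig1137_2, read only -5.42 and -4.91 in leaf and -7.64 and -8.14 in crown, where 1 of the 2 arrays was well above background. It was called in the same direction, at -2.72 (SE 0.315, adjusted p = 3.3e-04 by limma). Its crown values lay near the detection limit, so the sizes of the differences on these probes of the contig cannot be compared.

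The contigs whsh_allContig903 and whsh_allContig549 read 2.57 to 2.88 in leaf and -7.88 to -7.58 in crown. MUGEST2003_23lib_Contig20709_594 read 5.64 and 5.62 in leaf and -4.70 and -4.69 in crown. MUGEST2003_23lib_Contig18281_702 and wheat0130Contig5349 read 3.51 to 3.94 in leaf and -7.66 to -5.96 in crown. None of these groups of arrays overlapped, which the choice of probes by size all but ensured. The clone probe rwhh15h11 stood apart from the other 7. It read 4.34 and 4.34 in leaf at 4 °C against -6.45 and -6.26 in crown, a 1655-fold difference, but -3.36 and -3.42 in leaf at 24 °C against -4.86 and -4.80 in crown, a 2.71-fold difference. The tissue difference changed by -9.26 between the temperatures (SE 0.110, adjusted p = 4.3e-07 by limma).

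**Figure D2:**
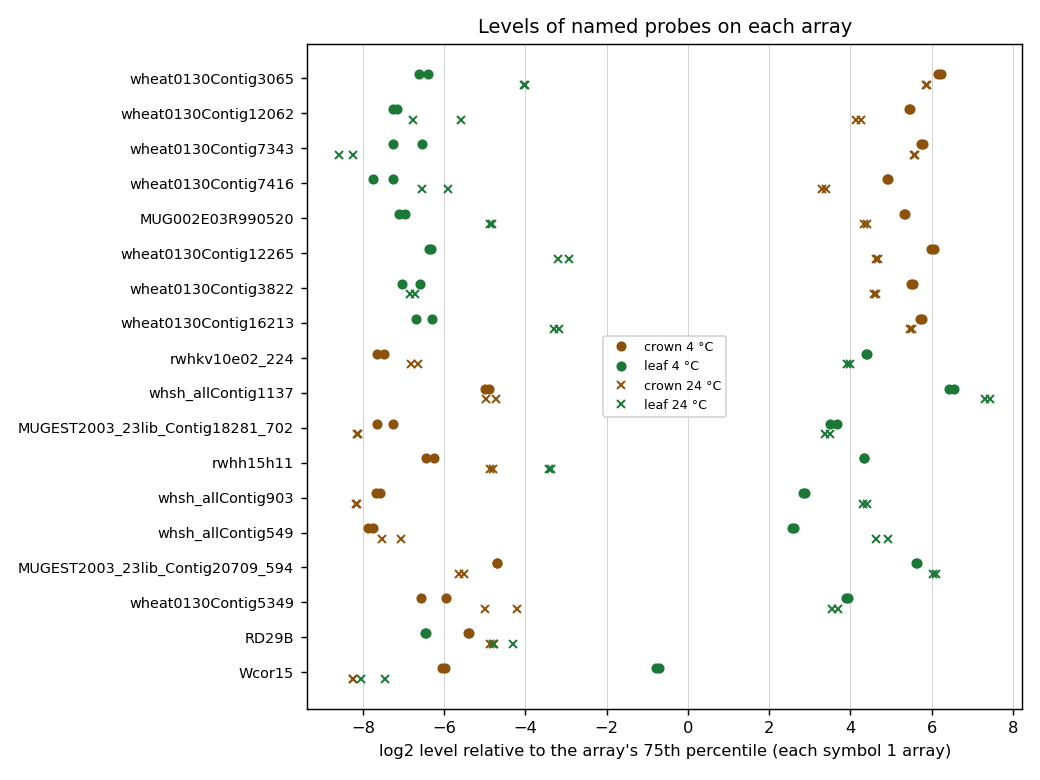
Levels in log2 relative to the array's 75th percentile (horizontal), each symbol 1 array, for the 8 probes highest in crown, the 8 highest in leaf, RD29B and Wcor15 (vertical); brown is crown, green leaf, circles 4 °C and crosses 24 °C. The replicate arrays lie close together, and for 15 of the 16 strongest probes the tissues are far apart at both temperatures; the exception is rwhh15h11, which is bright in leaf at 4 °C only.

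A further 2622 probes were well above background on both crown arrays and on neither leaf array, and 430 the other way round. For such probes the fold is a lower bound, taken against the lowest signal well above background, which was -7.89 and -8.19 on the leaf arrays and -8.47 and -8.38 on the crown arrays, or against the probe's own signal where that was higher. The highest signals not counted as well above background were -6.93 and -7.40 in leaf and -7.70 and -7.66 in crown, so the limit is not a sharp one. By these bounds, without normexp, 827 of the crown probes were at least 16-fold higher in crown, and 252 at least 256-fold. The counts for leaf were 123 and 34.

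The probe MUG001E05R990520 read 6.03 and 5.95 in crown and was not well above background in leaf, at -10.20 and -9.13. By the bound above it was at least 16744-fold higher in crown. The adjusted p of 2.5e-07 by limma belongs to the fitted difference from leaf values at background. Like each probe of this kind, it entered the test through the tissue in which it is high, so the p is no separate evidence. The contigs wheat0130Contig7727, wheat0130Contig5339 and wheat0130Contig16067 followed, at least 13000-fold, 10964-fold and 10611-fold higher, with crown levels of 5.26 to 5.70. On the leaf side MUGEST2003_23lib_Contig24263_512 read 4.30 and 4.25 and was not well above background in crown, at -10.32 and -10.65. It was at least 6647-fold higher in leaf, with an adjusted p of 2.1e-08 by limma that carries the same limit. MUGEST2003_23lib_Contig2264_802, MUGEST2003_23lib_Contig8826_948 and whsh_allContig132 were at least 3386-fold, 3020-fold and 1712-fold higher in leaf. All 8 were called in the same direction at 24 °C. The bounds hold only for the signal without normexp background correction. With normexp and quantile normalization the fitted differences were 10.47 for MUG001E05R990520 and -9.28 for MUGEST2003_23lib_Contig24263_512. For each of the 8 the fitted difference was then smaller in size than the bound.

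Of the 827 crown probes past the 16-fold bound, 665 showed the same pattern at 24 °C, that is, both crown arrays and no leaf array well above background, and 61 were well above background in both tissues there. Of the 123 leaf probes past it, 90 kept the pattern and 17 were well above background in both tissues. Over all probes detected in only one tissue at 4 °C the pattern was shared less often: 1020 of 2622 in crown, where 1055 cleared background on no array at 24 °C, and 162 of 430 in leaf.

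Only 6 probes carry a gene symbol, and all 6 belong to cold or dehydration response. Wcor15, a wheat gene of the COR family whose protein is imported into the chloroplast, read -0.78 and -0.71 in leaf and -5.98 and -6.05 in crown. The leaf arrays were far above the crown arrays. The difference was -5.27 (SE 0.192), or 38.6-fold higher in leaf, with an adjusted p of 1.8e-06 by limma. At 24 °C it cleared background on no array. Under 19 alternative settings the difference stayed between -6.00 and -3.55 and remained called.

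RD29B, named after a desiccation-responsive gene of Arabidopsis, went the other way by a small margin. It read -5.40 and -5.42 in crown and -6.47 and -6.45 in leaf. The groups did not overlap, and the difference of 1.05 (SE 0.155, adjusted p = 0.0010 by limma) was 2.07-fold, just past the fold required. It was lost in 5 of 19 alternatives and turned to -0.03 and -0.05 under quantile normalization without and with normexp. At 24 °C RD29B read -4.88 and -4.76 in crown and -4.80 and -4.32 in leaf, and no difference was called. RD29A, another desiccation-responsive gene of Arabidopsis, cor47, a dehydrin gene, and DREB2A and DREB2B, transcription factors of the dehydration response in that species, lay at background throughout, with no array well above it, and were not tested.

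The tissue difference at 4 °C was set beside that at 24 °C, which rests on 4 other arrays. The p-values at both temperatures share the same estimate of the spread, so the calls are not fully separate. Those arrays differ between tissues in scanner and software version as well as in tissue. At 24 °C limma called 16298 of 29689 probes (54.9%), 29.0% higher in crown and 25.9% higher in leaf. Of the 9740 crown calls at 4 °C that were tested at 24 °C, 6370 (65.4%) had the same call, 315 (3.23%) the opposite and 3055 (31.4%) none. Of the 7262 leaf calls, 4695 (64.7%) had the same call, 510 (7.02%) the opposite and 2057 (28.3%) none. Read from the other list, 75.4% of the crown calls and 61.6% of the leaf calls at 24 °C that were tested at 4 °C had the same call there.

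Large differences recurred more often than small ones. For crown the share with the same call was 41.5% among probes that differed by 2- to 4-fold at 4 °C, 71.2% at 4- to 16-fold, 90.8% at 16- to 64-fold, 98.0% at 64- to 256-fold and 99.0% above 256-fold. For leaf it was 49.7%, 73.1%, 87.2%, 91.1% and 96.3%. The same 2-fold threshold applied at 24 °C, so a probe just past it at 4 °C can lose its call through a small change. Of the 727 crown and 137 leaf probes above 256-fold, 260 and 75 cleared background on all 4 arrays at 4 °C. Of the 100 called probes highest in crown at 4 °C among those measured on all 4 arrays, all 100 were higher in crown at 24 °C, with median differences of 10.62 at 4 °C and 8.98 at 24 °C. Of the 100 highest in leaf, 98 were tested at 24 °C, where 95 had the same call and 2 the opposite, with medians of -8.50 and -8.22.

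**Figure D3:**
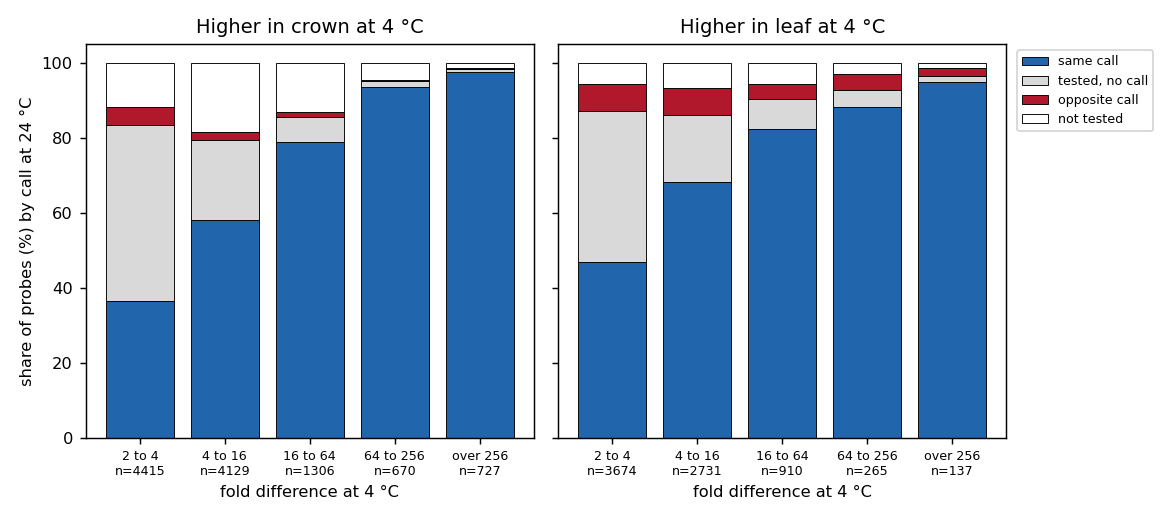
Share of the probes called at 4 °C (vertical, in percent of all called, including those not tested at 24 °C) by their call at 24 °C, for probes higher in crown (left) and higher in leaf (right), in bins of the fitted fold difference at 4 °C with the number of probes under each bar. The blue share, the same call at 24 °C, grows with the fold in both panels, while the red share, the opposite call, is 510 probes in leaf and 315 in crown.

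Whether the difference itself changed between the temperatures was tested as the tissue difference at 4 °C minus that at 24 °C. For this limma called 15006 of 32796 probes (45.8%). Within each tissue the arrays at 4 °C and 24 °C also differed in slide, scan day and software version, and in leaf in scanner. The plants at 4 °C were older, by 12 weeks in leaf and 6 weeks in crown. Temperature cannot be told apart from these in the change. Among the 6370 crown probes with the same call at both temperatures, the difference was larger at 4 °C for 2142 and smaller for 762. Among the 4695 leaf probes it was larger at 4 °C for 706 and smaller for 1394. The arrays at 4 °C reached lower, since the lowest signal well above background was -8.47 to -7.89 on them and -6.35 to -6.04 on those at 24 °C. Whether this changed the size of a difference from a dim tissue was not tested. Among the probes that cleared background on all 8 arrays, a restriction added after the data were seen, the counts were 1134 larger and 407 smaller of 4133 in crown and 529 larger and 1037 smaller of 3754 in leaf. Of the 3055 crown probes called at 4 °C and not at 24 °C, the change itself was called for 2107, and of the 2057 such leaf probes for 1344. For the rest a change was not shown.

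The 825 probes with opposite calls were all called for the change as well. That is no separate evidence, since opposite calls of at least 2-fold in a shared fit all but ensure it. The 825 probes comprised 315 that favoured crown at 4 °C and leaf at 24 °C and 510 the other way round. Of these, 207 and 399 cleared background on each of the 8 arrays. With both differences at 4-fold or more, 36 and 96 of those remained. Under both settings with normexp background correction the count of 825 fell to 466 and 465.

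The contig MUGEST2003_23lib_Contig4236_327 read -2.46 and -2.46 in crown at 4 °C against -5.64 and -5.60 in leaf. At 24 °C it read -4.12 and -4.11 in crown against 2.69 and 2.78 in leaf. Leaf was thus the high tissue at 24 °C and the low one at 4 °C, and the tissue difference moved from -6.85 to 3.16, a change of 10.01 (SE 0.0764, adjusted p = 3.4e-07 by limma). The clone probe rwhe8d06 went from -3.73 to 3.33 and whsh_allContig424 from -3.32 to 2.99. For whsh_allContig424 both tissues took part, since crown rose from -0.78 and -0.91 at 24 °C to 3.45 and 3.39 at 4 °C while leaf fell from 2.50 and 2.44 to 0.50 and 0.36. The other probe of the first clone, whe8d06, read 0.18 and 0.18 in crown and -1.09 and -1.09 in leaf at 4 °C, a difference of 1.27 (SE 0.0905, adjusted p = 3.5e-05 by limma). At 24 °C its difference of -0.41 was under 2-fold.

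In the opposite direction, wheat0130Contig11239 read -2.93 and -2.94 in leaf at 4 °C against -7.63 and -7.68 in crown, and -4.62 and -4.56 in leaf at 24 °C against 1.81 and 1.85 in crown. Crown was bright at 24 °C and near background at 4 °C, whereas leaf moved less. Its tissue difference moved from 6.42 to -4.72, a change of -11.14 (SE 0.0735, adjusted p = 3.4e-07 by limma). The clone probe rwhr22g15 went from 5.05 to -5.32 and wheat0130Contig1335 from 4.97 to -4.41. For these 2 the leaf levels lay between -1.12 and 0.03 on all 4 leaf arrays, and the crown levels between 3.95 and 4.29 at 24 °C and between -6.24 and -4.44 at 4 °C. All 6 probes kept both calls, and with them the call of the change, in each of the 14 alternatives in which the change was fitted. They were chosen for the size of both differences, so this is no separate evidence.

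Probe names divide the array into assemblies and clone groups, whose codes the files do not explain, and these groups differed in the tissue they favoured. Among the 1264 tested MUG probes, 701 (55.5%) were called higher in crown and 113 (8.94%) higher in leaf, with a median difference of 1.35. Over all tested probes the shares are 34.6% and 23.8% and the median 0.23. Among the 924 tested whsh_allContig probes the balance was the reverse, with 150 (16.2%) higher in crown, 493 (53.4%) higher in leaf and a median of -1.29. In this group 180 probes (19.5%) were higher in leaf by 16-fold or more, against 4.04% of all tested probes. At 24 °C the medians were 1.02 for MUG and -2.09 for whsh_allContig.

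The median of MUG stayed above 0 under all 9 other scalings, filters and background settings tried on the groups, between 0.79 and 2.88, whereas that of whsh_allContig lay between -1.68 and -1.08 except under scaling to spike-ins, where it was 0.24. Relative to the median of all tested probes, which removes a shift of a whole array, MUG lay between 0.86 and 1.18 and whsh_allContig between -1.52 and -1.14. The whfl_allContig group (1186 tested) had 41.8% higher in crown, 14.8% higher in leaf and a median of 0.56, above 0 in all 9. The small yNPF group (93 tested) had 55.9% and 10.8%, with a median of 1.36, also above 0 in all 9. Of the 2 largest groups, wheat0130Contig lay near the whole array. It had 37.0% and 21.1% with a median of 0.35, which was -0.05 under scaling to the median. The balance in the MUGEST group differed, with 28.3% higher in crown and 30.3% higher in leaf. Its median was -0.12, which was 1.41 under scaling to spike-ins. Relative to the median of all tested probes, MUGEST lay at -0.34 in the main setting and between -0.34 and -0.01 in the other 9.

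Single clone libraries, read from the leading letters of the clone names, differed too. Over the 34 libraries with at least 50 tested probes, the share higher in leaf ran from 9.56% in whca to 45.5% in whsd, and the share higher in crown from 13.3% in whsd to 47.8% in whca. Their medians ran from -0.77 to 0.91. The median of whca was above 0 in all 9 settings, and that of whsd was below 0 except under scaling to spike-ins, where it was 0.75.

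**Figure D4:**
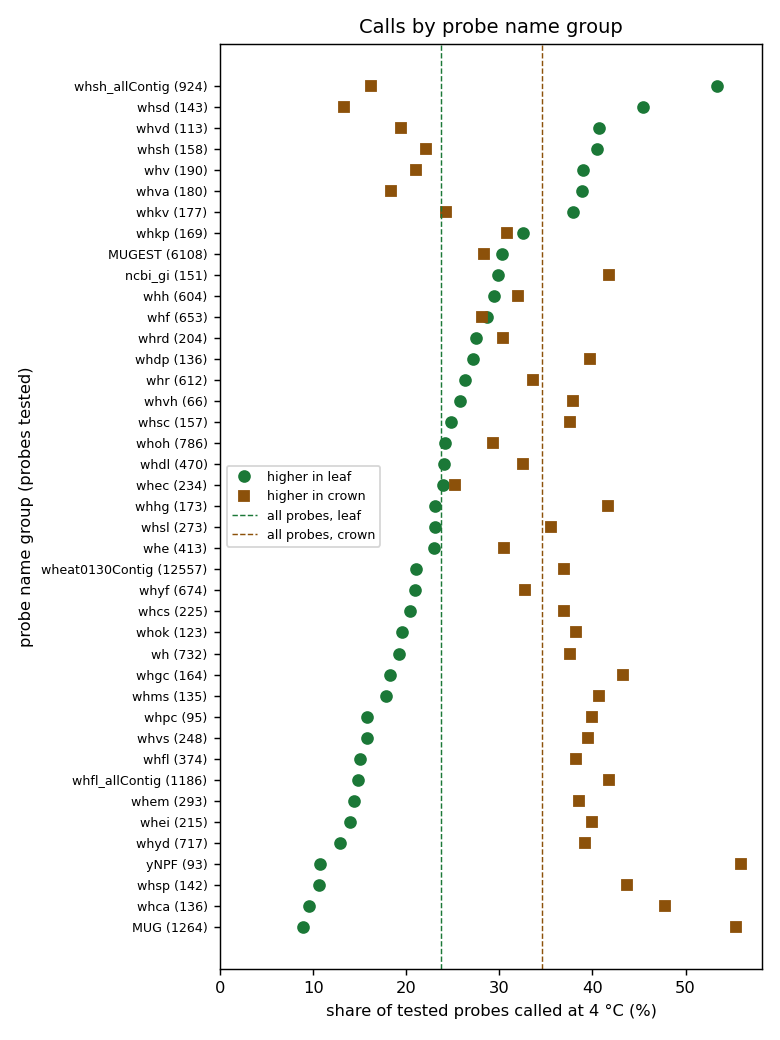
Share of tested probes called higher in leaf (green circles) and higher in crown (brown squares) at 4 °C, in percent, for each probe name group with at least 50 tested probes, whose number stands in brackets; the dashed lines give the shares over all tested probes. The groups are ordered by the leaf share, from whsh_allContig with 53.4% at the top to MUG with 8.94% at the bottom.

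Many clones are on the array with a pair of probes whose names differ by a leading r, so the tissue difference could be read by separate probes on the same arrays. Both probes were tested for 1858 of 2593 such clones. Both were called for 858, in the same direction for 789 (92.0%) and in opposite directions for 69, while 439 had 1 probe called and 561 neither. The differences of the paired probes correlated at r = 0.776 (Spearman's rho 0.752) over the 1858 clones, which share arrays and RNA, and their median gap was 0.519. Over the pairs with both probes well above background on all 4 arrays the median gap was 0.409. The gap between replicate arrays given above is one of single levels, so it cannot be set beside this gap of differences. Where the first probe differed by 16-fold or more and both were called, 133 of 138 pairs had the same direction.

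The clone whvs10m06 gave 5.98 and 6.40 on its probes, both higher in crown. The clone whf12i09 gave -5.79 and -6.23 and whsl1g11 gave -6.15 and -5.57, both higher in leaf. In whyf22m03 the probes gave 6.62 and 6.27, but the second of these had a wide spread and an adjusted p of 0.0319 by limma. The clone whgc11o19 was the clearest conflict, with 6.61 on the probe whgc11o19_24 and -4.22 on rwhgc11o19_245. The same conflict was seen at 24 °C, at 7.52 and -6.02. These clones were picked after their values were seen, as the pairs with the largest smaller difference in each class. For the 150 contigs with both a _p and an _m probe tested the match was looser, with the same direction in 52 of 61 pairs called on both and r = 0.479.

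**Figure D5:**
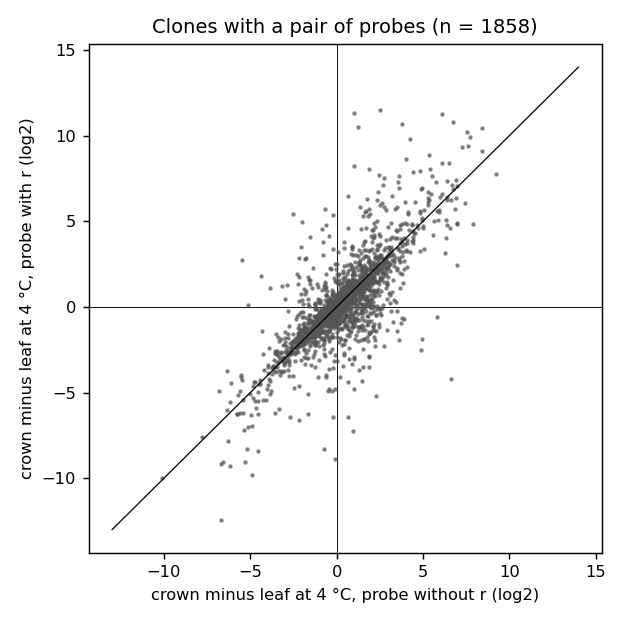
Crown minus leaf at 4 °C in log2 on the probe without a leading r (horizontal) and the probe with it (vertical), each point 1 of 1858 clones with both probes tested; the line marks equal values. Most points follow the line, and the quadrants of opposite sign hold the conflicts, such as whgc11o19 at 6.61 and -4.22.

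Probes named by a sequence accession could not be tied to a gene by the reference table, which held none of these names. GI numbers were not looked up in it. Of 41 accession-named probes 20 were tested, and 12 (60.0%) were called higher in crown and 2 (10%) higher in leaf, against 34.6% and 23.8% of all tested probes. Their differences lay between -4.93 and 3.80. Of these 14, 12 were tested at 24 °C, where 10 had the same call and 1 the opposite. Of 238 probes with a GI number 151 were tested, 63 (41.7%) called higher in crown and 45 (29.8%) higher in leaf, with differences between -7.61 and 12.66. The probe at 12.66 is not among the 8 listed for crown, so it was not a called probe well above background on all 4 arrays. Its size is therefore uncertain. The balance of crown and leaf calls among the GI-number probes depended on the processing. The counts in crown and leaf were 46 and 52 with quantile normalization, 35 and 40 with normexp, 23 and 40 with both, 40 and 43 with the common floor, and 32 and 43 among the 115 probes that cleared background on all 4 arrays. Crown stayed ahead with scaling to the median (56 and 50), cyclic loess (57 and 46), scaling to spike-ins (99 and 22) and the authors' table (58 and 47). The same call was made at 24 °C for 68 of 92 and the opposite for 5.

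Among the 2 brightest probes of each tissue, differences were under 2-fold with the 75th-percentile scaling, with 1 exception. This does not extend to bright probes at large. In the brightest of the 5 level bins, 27.8% of probes were called higher in crown and 25.8% higher in leaf. MUGEST2003_23lib_Contig8430_301 was among the 2 brightest in each tissue, at 7.36 and 7.38 in crown and 7.31 and 7.46 in leaf, and the groups overlapped. The difference was -0.02 (SE 0.0664, adjusted p = 0.802 by limma), but it was 1.51 under scaling to spike-ins and -0.99 under cyclic loess. The contig wheat0130Contig2340 read 7.44 and 7.51 in leaf and 7.18 and 7.23 in crown, a difference of -0.27 that was under 2-fold. It turned to 1.25 under scaling to spike-ins and was called higher in leaf under cyclic loess, at -1.18 (adjusted p = 3.0e-06 by limma). The probe yNPF2019pBST3 read 7.34 and 7.34 in crown and 5.99 and 5.97 in leaf. It was that exception, higher in crown by 1.36 (SE 0.0632, adjusted p = 5.0e-06 by limma) on every array, and under 2-fold in 2 of 19 alternatives.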

How the data were processed

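RNA of each sample was labelled with Cy3 for an Agilent array with 1 colour, and the labels give 4 groups of 2 arrays. The deposited scanner output gives background-subtracted intensity from Feature Extraction, per the file headers in version 10.5.1.1 at 4 °C, where the submitters' processing notes say 9.5. Further deposited columns, of kind other, hold flags of 0 or 1 and the class of each spot. The authors also deposited a table of normalized intensity, used as an alternative.

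Each array's 75th percentile over non-control probes was subtracted from the log2 processed signal; control spots were left out. Using limma 3.58.1 (R 4.3.3), 1 mean per group was fitted to the 8 arrays (4 residual and 1.55 prior degrees of freedom). A contrast tested the probes that were well above background for both arrays of any group in it, with Benjamini-Hochberg adjustment over them, and called at an adjusted p below 0.05 and at least 2-fold. For the change with temperature, both groups of each tissue entered. The fit was tested on simulated data. The names printed are the gene-symbol probes, the 8 highest in crown and the 8 in leaf, the 4 per tissue with the largest lower bounds, the 3 each way with opposite calls, and the 2 brightest per tissue. Clone examples were added after their values were seen. The members, lists and rules were chosen with earlier results of these data known. The 23 alternatives covered scaling, background, filters, thresholds, blocks and leaving out arrays; normexp (offset 50), planned on the mean spot signal, was run on the median spot signal, the column the files hold. Replicate numbers were not used to pair the samples in the main fit. Deviations of same-numbered crown and leaf arrays correlated at 0.0392 over 24596 probes. With 1 such deviation per tissue, this cannot show whether same-numbered samples came from the same experiment. Figures were drawn with matplotlib 3.10.9.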

Additional observations from a re-analysis of the deposited data

Results flagged for a closer look

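The following results drew attention because the tissue difference at 4 °C and that at 24 °C differed by the test of the change itself in limma, with no explanation weighed. There were 825 probes with opposite calls at the temperatures, for which the opposite calls all but ensure the call of the change. Among the named probes with opposite calls, the change in log2 difference was 7.07 for rwhe8d06, 10.01 for MUGEST2003_23lib_Contig4236_327, 6.31 for whsh_allContig424, -10.37 for rwhr22g15, -11.14 for wheat0130Contig11239 and -9.38 for wheat0130Contig1335. Of the other named probes, those with a called change that cleared background on all 8 arrays are given first. Among the strongest crown probes the difference was larger at 4 °C by 2.83 for wheat0130Contig3065, 3.18 for MUG002E03R990520, 4.66 for wheat0130Contig12265 and 3.51 for wheat0130Contig16213. Among the strongest leaf probes the change was -9.26 for rwhh15h11, -1.95 for wheat0130Contig5349 and 1.32 for MUGEST2003_23lib_Contig20709_594. For RD29B it was 1.32. Among the strongest probes that fell short of background on some array at 24 °C, the called changes were 2.31 for wheat0130Contig12062, 2.84 for wheat0130Contig7416 and, the other way, -1.33 for wheat0130Contig7343 in crown, and -1.28 for rwhkv10e02_224, 2.02 for whsh_allContig903 and 1.66 for whsh_allContig549 in leaf.

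Control spots outside the comparison carried signal on the arrays of crown at 4 °C. The spots named ETG05_66023 had a mean level of -6.16 there, with 10 and 10 of 10 spots well above background, against 3 and 6 in leaf at 4 °C; without cold, 0 to 4 of 10 spots were. The spots named ETG10_236652 had a mean level of -7.61, with 10 and 9 of 10 spots well above background, against 0 and 0 in leaf at 4 °C and 0 or 1 at 24 °C. What these spots contain is not given in the sources used here.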

How the results depend on the processing

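Of the 35 named probes that were tested, 31 kept their direction and side of the threshold in every alternative. Each was fitted singly in 18 or 19 alternatives, the 8 probes detected in 1 tissue having no value under the filter on all 4 arrays. Most of the 31 were chosen for large differences, so keeping the call was all but assured and is no separate evidence. Among the tested gene-symbol and brightest probes, not chosen by difference, only Wcor15 kept it throughout. The others were RD29B, yNPF2019pBST3 and the 2 bright probes below. With replicate number as a block, 11233 probes were higher in crown and 7718 in leaf, and it changed no call of a named probe. Leaving out each array in turn gave 10910 to 11234 in crown and 7570 to 7836 in leaf. Counts moved by over 1.5 times with scaling to spike-ins (21627 and 2980), with normexp and quantile normalization (6560 in crown), without the fold threshold (12394 in leaf) and with a 4-fold threshold (6832 and 4043). The share of calls with the same call at 24 °C, 65.1% in the main setting, was 66.1% with quantile normalization, 71.1% with spike-in scaling, 57.9% with normexp, 63.1% with normexp and quantile normalization, 59.4% with no filter and 61.6% with the filter on all 4 arrays. The opposite calls, 825, were 466 and 465 under the normexp settings. RD29B turned to -0.033 with quantile normalization and -0.051 with normexp and quantile normalization; with spike-in scaling MUGEST2003_23lib_Contig8430_301 turned to 1.51 and wheat0130Contig2340 to 1.25, while with cyclic loess they were -0.99 and -1.18, the latter called. The cause of these changes was not tested. Slide as a random block gave 11443 and 7811, but no slide holds both tissues. The 4-fold threshold kept 57.3% of the calls and the other alternatives 69.0% to 100%. On probes clearing background on all 8 arrays, 1134 and 407 crown probes had a difference larger and smaller at 4 °C, against 2142 and 762. Dim probes are limited by signal over background, which differed between the tissues.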
